A study of Mus musculus with 6 samples.

Results

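Desmosomes rivet keratinocytes to one another. Desmogleins (Dsg) and desmocollins (Dsc) are cadherins that meet in the gap between cells, plakoglobin and plakophilins (Pkp) bind their tails, and desmoplakin (Dsp) ties the plaque to keratin filaments. In stratified epidermis the cadherins are layered: desmoglein 3 and desmocollin 3 are known for the basal and lower spinous layers, and desmoglein 1 and desmocollin 1 for the upper layers. The 10 genes described here are Dsg1a, Dsg1b, Dsg3, Dsc1, Dsc2, Dsc3, Dsp, Pkp1, Pkp3 and Perp. They were taken by symbol from the deposited table, where all 10 were present among 17025 genes, and all 10 were among the 11603 genes tested.

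RNA-seq had been done on epidermal progenitor cells that were sorted for integrin α6 from mice at postnatal day 0. The 3 libraries labelled cKO carry K14Cre with both Ash2l alleles floxed (K14Cre,Ash2lF/F), and the 3 libraries labelled control carry K14Cre with 1 floxed allele (K14Cre,Ash2lF/+), so both groups carry Cre and a floxed allele. The keratin 14 promoter drives Cre in basal keratinocytes and their descendants, and ASH2L is a core subunit of the enzymes that methylate histone H3 lysine 4. The labels give no age beyond the day of birth, no strain and no statement that libraries came from separate animals, and the p-values reflect only how far these libraries spread, which may be technical.

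The targeted gene went against the labels. Ash2l measured 30.9, 29.5 and 22.9 FPKM (fragments per kilobase of gene, scaled to library size) in the libraries labelled cKO 1, 2 and 3, against 12.4, 18.1 and 15.9 FPKM in those labelled control 1, 2 and 3. The log2 difference was 0.81 (SE 0.19, limma adjusted p = 0.0240), and the call was lost without cKO 1, cKO 2, control 1 or control 3 (adjusted p 0.0564 to 0.0828). All directions given here are therefore drawn from labels that Ash2l contradicts, and a gene total does not show whether a floxed exon was lost. The column names of the libraries labelled control carry the letter C and those of the libraries labelled cKO the letter W. The labels do not explain these letters. The libraries held 31578875 to 36027550 fragments. Keratinocyte markers were abundant in every library, with 8075 to 10474 FPKM summed over 8 basal markers in the libraries labelled cKO, against 5021 to 8702 FPKM in those labelled control. Spinous markers (6 genes) summed to 36849 to 70455 and 5203 to 7248 FPKM in the same order, granular markers (6 genes) to 183 to 208 and 105 to 154 FPKM, melanocyte markers (10 genes) to 178 to 392 and 2946 to 3370 FPKM, and fibroblast markers (8 genes) to 152 to 458 and 98.8 to 353 FPKM. Of these, 5 spinous markers passed the test as higher and none as lower, 2 granular markers as higher and none as lower, all 10 melanocyte markers as lower and no fibroblast marker in either direction. Krt5, Krt14 and Krt15 made up most of the basal sum, and the median log2 difference of the 8 basal markers was -0.58. Krt15 was higher (2.23, limma adjusted p = 0.00215), while Itgb4 (-1.70, adjusted p = 0.0437) and Itgb1 (-1.57, adjusted p = 0.0201) were lower. Itga6, which encodes the integrin used for the sort, averaged 42.1 ± 19.4 FPKM in the libraries labelled cKO and 104 ± 50.1 FPKM in those labelled control (-1.32, adjusted p = 0.0710), and Col17a1 was at -1.09 (adjusted p = 0.262). Of 5 tested Schwann cell markers, 2 were lower. The library labelled cKO 3 had the highest spinous sum and the lowest melanocyte and fibroblast sums of its group. Control 1 had the highest basal and the lowest spinous sum of its own, and some values are therefore also given without both (4 libraries). The libraries labelled cKO 1 and 2 that remain were near each other in Krt1 (12004 and 12030 FPKM) and Pkp1 (734 and 736 FPKM). On the 4 libraries, genes passing the test rose from 681 to 1172 higher and from 1576 to 2400 lower over all genes. A pass on the 4 libraries may therefore reflect a smaller spread. The part of the spinous and melanocyte shifts in the results on desmosome genes was not tested. Each library averages over its cells, so fewer cells of a type and less RNA per cell cannot be told apart.

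Of the 10 desmosome genes, 4 were higher in the libraries labelled cKO (Dsg1a, Dsc3, Pkp1 and Perp) and 1 was lower (Dsg3), under an adjusted p of 0.05 in a limma fit over all genes tested. Over all genes, 19.5% were called, 5.87% higher and 13.6% lower (681 and 1576 genes, or 1045 and 997 when scaled by the median of ratios). The libraries of the 2 labelled groups did not overlap for 9 desmosome genes, 8 with every library labelled cKO above every library labelled control and 1 below. Such separation was seen upward in 12.0% and downward in 30.9% of all genes tested. The median difference of the 10 genes, on the log2(FPKM + 1) scale used throughout, was 0.69, beside -0.17 for all genes. Scaling by the median of ratios moved the median of all genes to 0.029 and the desmosome genes called higher to 6, with 1 lower. The library labelled cKO 3 held the highest value of 9 of the 10 genes.

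**Figure D1:**
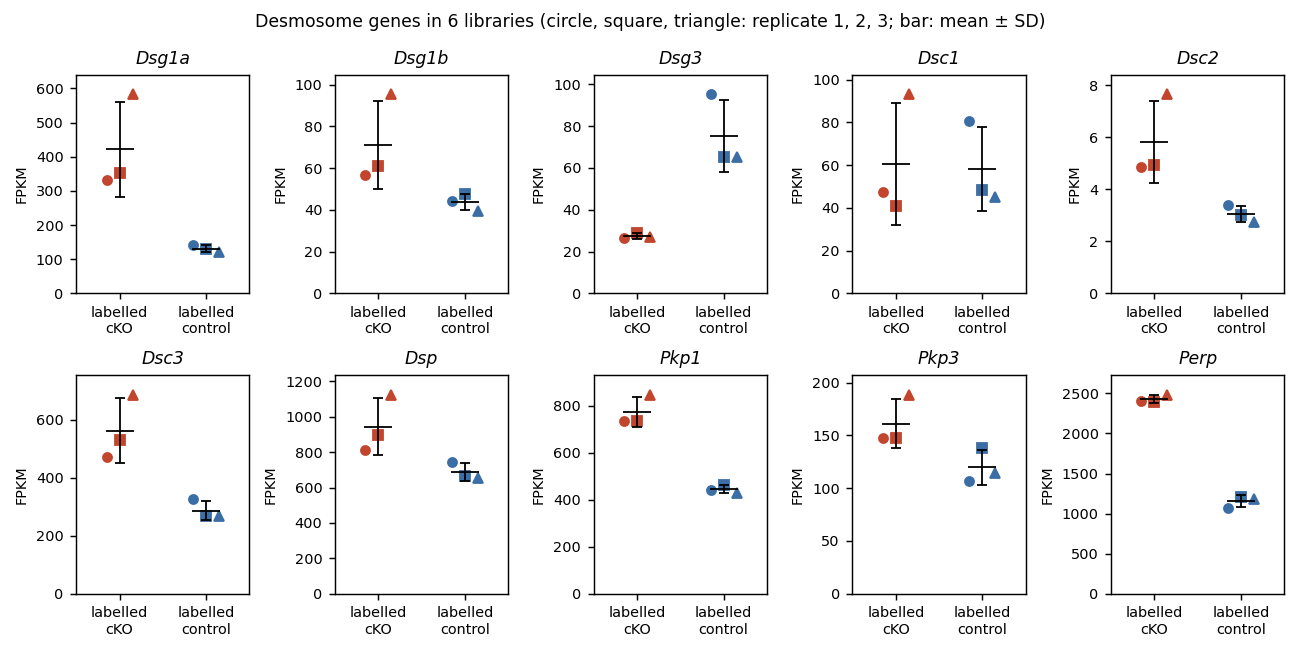
FPKM of each of the 10 desmosome genes, with libraries labelled cKO on the left and labelled control on the right of each panel, every axis starting at 0. Points are single libraries and bars show the mean and SD of 3 libraries; Dsg3 lies lower in the libraries labelled cKO, Dsc1 overlaps, and the other 8 lie higher.

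Among the desmogleins, Dsg1a and Dsg3 moved in opposite directions. Dsg1a measured 331, 352 and 582 FPKM in the libraries labelled cKO 1, 2 and 3, against 142, 129 and 120 FPKM in those labelled control. All libraries labelled cKO were above all those labelled control, and cKO 3 was the highest. The means were 422 ± 139 and 131 ± 11.0 FPKM (SD, n = 3 each), with a log2 difference of 1.64 (SE 0.22, limma adjusted p = 0.00320). Dsg3, the desmoglein of the lower layers, measured 26.4, 28.8 and 27.2 FPKM in the libraries labelled cKO, against 95.2, 65.2 and 65.4 FPKM in those labelled control. The groups did not overlap, the libraries labelled cKO lay close together, and control 1 was the highest. Means of 27.5 ± 1.27 and 75.3 ± 17.2 FPKM (SD, n = 3 each) gave a log2 difference of -1.40 (SE 0.17, limma adjusted p = 0.00247).

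Dsg1b, the mouse paralogue next to Dsg1a, measured 56.8, 60.9 and 95.3 FPKM in the libraries labelled cKO, against 44.2, 47.5 and 39.5 FPKM in those labelled control. The groups did not overlap, but the log2 difference of 0.65 (95% interval 0.18 to 1.13) did not pass the test (limma adjusted p = 0.0607). It did on the 4 libraries labelled cKO 1 and 2 and control 2 and 3 (0.43, adjusted p = 0.0387). The difference was smaller there, while the genes called higher over all genes rose from 681 to 1172. With any library left out, Dsg1b was not called (adjusted p 0.0569 to 0.172). The 2 paralogues share sequence: 24.6% of the 100-base windows of the longest Dsg1a transcript in the GENCODE annotation were found in another gene, mostly in Dsg1b, and 32.8% of those of Dsg1b. How fragments from shared stretches were split is not given in the sources used here, so the division between Dsg1a and Dsg1b is uncertain and their sum is less so. The sum was 388, 413 and 678 FPKM in the libraries labelled cKO, against 187, 177 and 160 FPKM in those labelled control, and its mean was 2.83 times as high in the libraries labelled cKO. None of the other 8 genes shared a 100-base window with another gene.

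The ratio of desmoglein 1 to desmoglein 3 transcripts separated the groups most widely among the ratios computed. The FPKM of Dsg1a and Dsg1b together was 14.7, 14.3 and 24.9 times that of Dsg3 in the libraries labelled cKO, against 1.96, 2.71 and 2.45 times in those labelled control. On the log2 scale the means were 4.12 ± 0.45 and 1.23 ± 0.24 (SD, n = 3 each), a difference of 2.89. The exact two-sided permutation test gave p = 0.1, the smallest that 3 against 3 libraries allow, so this design cannot pass 0.05. Over the 6 ratios tested the adjusted p was 0.12. A ratio within a library does not change with the scaling of the library.

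Among the desmocollins, Dsc3 was higher in the libraries labelled cKO and Dsc1 did not pass the test. Dsc3, the desmocollin of the lower layers, measured 471, 529 and 686 FPKM in the libraries labelled cKO, against 325, 268 and 267 FPKM in those labelled control. The groups were apart, and the log2 difference was 0.96 (SE 0.17, limma adjusted p = 0.00825). Dsc1, the desmocollin of the upper layers, measured 47.5, 40.7 and 93.1 FPKM in the libraries labelled cKO, against 80.7, 48.4 and 45.2 FPKM in those labelled control. Here the groups overlapped, with 1 high library in each, cKO 3 and control 1. The log2 difference was 0.0095 with a 95% interval of -0.77 to 0.79 (limma adjusted p = 0.988), which leaves room for changes in either direction. Without the library labelled cKO 3 it was -0.35 (adjusted p = 0.374), and without control 1 it was 0.27 (adjusted p = 0.618). Dsc2, the more widely expressed desmocollin, was the least abundant of the 10 genes, at 4.85, 4.95 and 7.65 FPKM in the libraries labelled cKO and 3.39, 3.02 and 2.75 FPKM in those labelled control. Its groups were apart, with a log2 difference of 0.73 (95% interval 0.21 to 1.24, limma adjusted p = 0.0550). Median-of-ratios scaling brought it past the threshold (adjusted p = 0.0452), as did the 4 libraries named above (adjusted p = 0.0378). With any library left out, Dsc2 was not called (adjusted p 0.0810 to 0.148).

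The ratio of Dsc1 to Dsc3 was lower in the libraries labelled cKO. Dsc1 was at 0.101, 0.0769 and 0.136 times the level of Dsc3 in the libraries labelled cKO, against 0.248, 0.180 and 0.170 times in those labelled control. The groups did not overlap, and the log2 difference was -0.95 (exact permutation p = 0.1, adjusted 0.12). The desmoglein and desmocollin ratios of upper-layer to lower-layer genes lay on opposite sides of their control values, the first above and the second below. Dsc3 was 17.9, 18.3 and 25.3 times as abundant as Dsg3 in the libraries labelled cKO, against 3.42, 4.11 and 4.08 times in those labelled control (log2 difference 2.39, exact permutation p = 0.1, adjusted 0.12). That ratio, and the one of Dsg1a to Dsg1b, were chosen after the values were seen. Dsg1a was 5.83, 5.77 and 6.11 times as abundant as Dsg1b in the libraries labelled cKO, against 3.22, 2.72 and 3.05 times in those labelled control (log2 difference 0.98, exact permutation p = 0.1, adjusted 0.12).

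**Figure D2:**
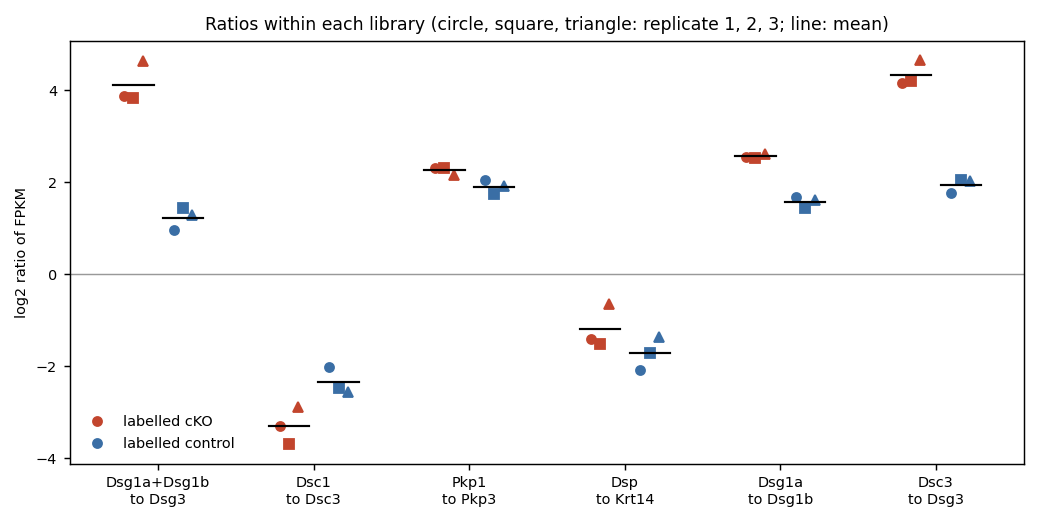
Log2 ratios of FPKM between pairs of genes within each library, with libraries labelled cKO left of those labelled control in each pair. Points are libraries and lines are means; the groups overlap only for Dsp to Krt14, and the desmoglein 1 to desmoglein 3 ratio is at least 3.84 in every library labelled cKO and at most 1.44 in every library labelled control.

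The cadherin genes sit side by side in one cluster. In the RefSeq annotation of GRCm38 their order is Dsc3, Dsc2, Dsc1, Dsg1c, Dsg1a, Dsg1b, Dsg4, Dsg3 and Dsg2. Along that order the log2 differences were 0.96, 0.73 and 0.0095 for the 3 desmocollins, 1.64 and 0.65 for Dsg1a and Dsg1b, -1.40 for Dsg3 and 1.09 for Dsg2. Of these, Dsc3 and Dsg1a were called higher and Dsg3 lower, and the other 4 were not called. Dsg2, the desmoglein of simple epithelia and of proliferating cells, measured 12.1, 12.6 and 5.76 FPKM in the libraries labelled cKO, against 5.57, 3.86 and 2.92 FPKM in those labelled control (SE 0.32, limma adjusted p = 0.0514). It passed the test without the library labelled cKO 3 (1.42, adjusted p = 0.0112) and on the 4 libraries (1.61, adjusted p = 0.00247). Both settings leave out cKO 3, where Dsg2 was lowest among the libraries labelled cKO. Dsg2 also passed when values were scaled by the median of ratios (adjusted p = 0.0222). With each other library left out it was not called (adjusted p 0.0585 to 0.153). Dsg1c, and Dsg4, the desmoglein of the hair shaft, averaged below 1 FPKM and were not tested. Dsg4 was listed at 0 in all libraries labelled control and in cKO 3.

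In the plaque, Dsp was the most abundant linker and did not pass the test. Its levels were 810, 898 and 1125 FPKM in the libraries labelled cKO, against 744, 666 and 655 FPKM in those labelled control. The groups were apart by a small margin between cKO 1 and control 1. The means were 944 ± 162 and 688 ± 48.6 FPKM (SD, n = 3 each), with a log2 difference of 0.44 (95% interval 0.11 to 0.78, limma adjusted p = 0.0694). Median-of-ratios scaling gave 0.67 (adjusted p = 0.0465), and the 4 libraries gave 0.37 (adjusted p = 0.0204). Dsp was not called in 16 of 21 alternatives. These included quantile normalization (0.33, adjusted p = 0.291) and each library left out (adjusted p 0.0657 to 0.189). Relative to Krt14, a keratin of basal cells, Dsp stood at 0.377, 0.348 and 0.634 in the libraries labelled cKO and at 0.236, 0.305 and 0.389 in those labelled control. These ratios overlapped (log2 difference 0.52, exact permutation p = 0.3, adjusted 0.3), and on the 4 libraries the difference was 0.070. In the GENCODE annotation of GRCm38, 5.17% of the Dsp exon bases are overlapped by a gene on the other strand, Gm10129, and the use of strand in counting is not given in the sources used here.

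Of the 10 genes, only Dsp had an entry at hand in the RefSeq promoter table used here, and its promoter is shown for that reason. The 250 bases before its start are at chr13:38151044-38151293, plus strand, in RefSeq on GRCm38.p6, with capitals marking the letters GGGCGG on either strand (the GC box).
Dsp promoter: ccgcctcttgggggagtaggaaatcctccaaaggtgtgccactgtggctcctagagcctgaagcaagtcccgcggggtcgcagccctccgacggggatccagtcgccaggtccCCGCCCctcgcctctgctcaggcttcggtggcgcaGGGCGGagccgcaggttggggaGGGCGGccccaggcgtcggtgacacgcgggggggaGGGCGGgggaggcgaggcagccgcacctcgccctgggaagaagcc
The window held 4 GC boxes and was 72.4% G and C, against a median of 52.0% over all promoters in that table. At least 1 GC box was found in 32.9% of 27025 windows of that length. The letters AACNGGTT (the core of grainyhead-like factor sites), TGANTCA (AP-1) and CANNTG (the E-box), searched on both strands, had no match in this window and were found in 1.71%, 6.87% and 66.0% of all windows.

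Both plakophilin genes among the 10 lay above the control range, and Pkp1 passed the test. Pkp1, the main plakophilin of the upper epidermal layers, measured 734, 736 and 848 FPKM in the libraries labelled cKO, against 444, 464 and 431 FPKM in those labelled control. The groups were well apart, with a log2 difference of 0.79 (SE 0.11, limma adjusted p = 0.00399). Pkp3, found in all epidermal layers, measured 148, 148 and 189 FPKM in the libraries labelled cKO, against 107, 138 and 114 FPKM in those labelled control. The gap to control 2 was small, and the log2 difference of 0.43 (95% interval 0.07 to 0.78) did not pass the test (limma adjusted p = 0.0895). Quantile normalization called it higher (0.57, adjusted p = 0.0302). The 4 libraries (0.23, adjusted p = 0.152) and median-of-ratios scaling (adjusted p = 0.0548) did not. Pkp3 was also not called with any library left out (adjusted p 0.0903 to 0.216). Pkp1 was 4.97, 4.99 and 4.49 times as abundant as Pkp3 in the libraries labelled cKO, against 4.16, 3.36 and 3.77 times in those labelled control (log2 difference 0.36, exact permutation p = 0.1, adjusted 0.12). These ratios did not overlap.

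Perp had the highest level of the 10 genes and the smallest adjusted p. It encodes a tetraspan membrane protein that is a target of p53 and p63 and is needed for stable desmosomes in mouse skin. Perp measured 2411, 2394 and 2484 FPKM in the libraries labelled cKO, against 1074, 1208 and 1186 FPKM in those labelled control. Libraries within each group lay close together and the groups far apart. The means were 2430 ± 47.8 and 1156 ± 71.9 FPKM (SD, n = 3 each), with a log2 difference of 1.07 (SE 0.11, limma adjusted p = 0.00151). By its mean over the 6 libraries Perp ranked 10 among all 17025 genes, while Dsp ranked 49, Pkp1 71, Dsc3 107 and Dsg1a 158.

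The calls of Dsg1a, Dsc3, Pkp1, Perp and Dsg3 held in all 21 alternatives, including each library left out in turn. Their ranges were 1.38 to 1.86 for Dsg1a, 0.80 to 1.18 for Dsc3, 0.72 to 1.01 for Pkp1, 0.68 to 1.30 for Perp and -1.49 to -1.18 for Dsg3.

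**Figure D3:**
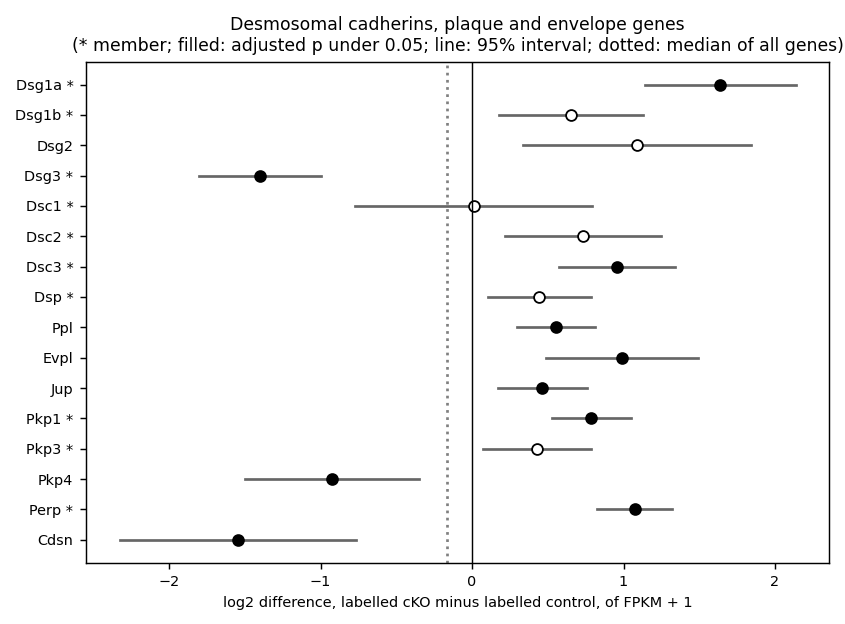
Log2 differences (labelled cKO minus labelled control, FPKM + 1) with 95% intervals for the 10 desmosome genes, marked by an asterisk, and 6 further genes of the cadherin, plaque and envelope machinery. Filled points passed an adjusted p of 0.05, and the dotted line is the median of all genes at -0.17; Dsg3, Pkp4 and Cdsn lie left of it and Dsc1 has the widest interval among the 10.

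By level, the order in the libraries labelled cKO was Perp, Dsp, Pkp1, Dsc3, Dsg1a, Pkp3, Dsg1b, Dsc1, Dsg3 and Dsc2. In those labelled control it was Perp, Dsp, Pkp1, Dsc3, Dsg1a, Pkp3, Dsg3, Dsc1, Dsg1b and Dsc2. The same genes held the first 6 places, and Dsg3 and Dsg1b exchanged places below them. Neighbours with overlapping ranges were Dsp and Pkp1, Dsc3 and Dsg1a, and Dsg1b and Dsc1 in the libraries labelled cKO. In those labelled control they were Dsg1a and Pkp3, Dsg3 and Dsc1, and Dsc1 and Dsg1b.

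The 10 genes summed to 5040, 5192 and 6137 FPKM in the libraries labelled cKO, against 3059, 3038 and 2926 FPKM in those labelled control. They took between 1.32 and 1.56% of all FPKM in the libraries labelled cKO, against 0.822 to 0.879% in those labelled control. Within the sum, the share of Dsg3 was 0.507 ± 0.0581% in the libraries labelled cKO and 2.50 ± 0.533% in those labelled control (SD, n = 3 each). Dsp made up 17.2 ± 1.13% and 22.9 ± 1.27%, again with the libraries labelled cKO first. Dsg1a made up 7.61 ± 1.63% and 4.34 ± 0.276%, and Perp 44.8 ± 3.85% and 38.5 ± 2.94%. The libraries of both groups were apart for Dsg3, Dsp and Dsg1a. They were also apart for Pkp3, at 2.85 to 3.07% in the libraries labelled cKO, against 3.49 to 4.55% in those labelled control, and for Dsc1, at 0.783 to 1.52%, against 1.55 to 2.64%, while Perp shares overlapped between cKO 3 (40.48%) and control 3 (40.53%). Pkp1 (14.2 ± 0.378% and 14.8 ± 0.401%) and Dsc3 (10.2 ± 0.924% and 9.53 ± 0.969%) had shares that overlapped between the groups. Shares of one sum are not independent of each other.

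**Figure D4:**
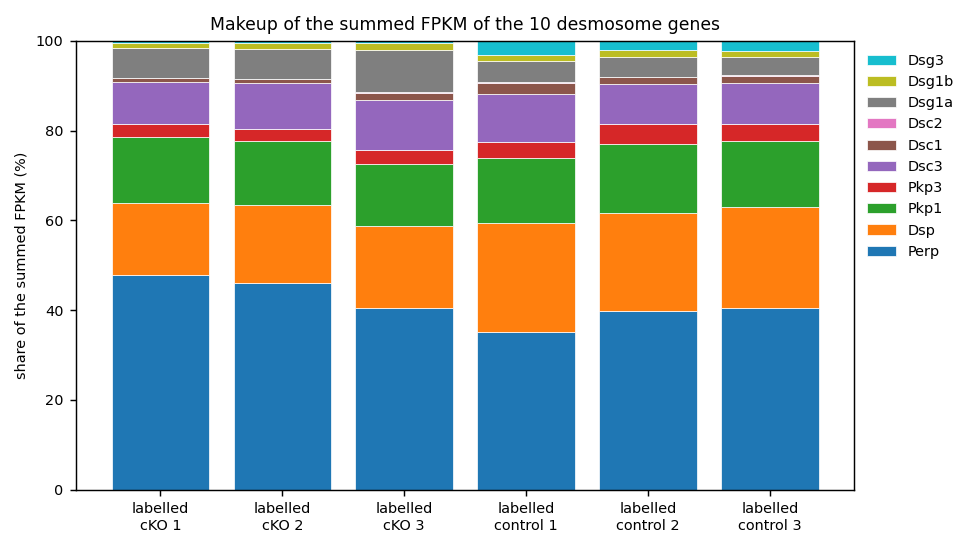
Share of each of the 10 genes in their summed FPKM in each library, in percent, with the 3 libraries labelled cKO on the left and the 3 labelled control on the right. Perp is the largest part in all 6 libraries, and the Dsg3 part at the top is thinner in the libraries labelled cKO (0.443 to 0.556%) than in those labelled control (2.15 to 3.11%).

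Other desmosomal components went both ways. Of 7 genes, 4 were tested, 1 was higher and 2 were lower, with a median of -0.23. The shares over all genes tested, 5.87% higher and 13.6% lower, are the background for this count and for those of the lists that follow. Median-of-ratios scaling and quantile normalization each gave 2 higher and 1 lower. Jup, which encodes plakoglobin, the link between cadherin tails and desmoplakin, measured 346, 362 and 443 FPKM in the libraries labelled cKO, against 274, 289 and 267.5 FPKM in those labelled control (log2 difference 0.46, SE 0.13, limma adjusted p = 0.0405). The groups were apart, but the call was lost without the library labelled cKO 1, cKO 2 or any labelled control (adjusted p 0.0627 to 0.126). Pkp4, an armadillo protein of several junction types, was lower at -0.92 (adjusted p = 0.0376). Its call was lost without cKO 2 or any labelled control (adjusted p 0.0523 to 0.103), under median-of-ratios scaling (adjusted p = 0.0565) and under quantile normalization (adjusted p = 0.0538). Cdsn, which encodes corneodesmosin of the cornified layer, was lower at -1.55 (adjusted p = 0.0182). It averaged 0.863 ± 0.542 FPKM in the libraries labelled cKO and 4.51 ± 1.80 FPKM in those labelled control. With 0.1 added instead of 1 the difference was -2.34, so its size depends on the value added. The Cdsn call was lost without cKO 1, control 1 or control 2 (adjusted p 0.0514 to 0.0701). Pkp2 averaged below 1 FPKM, at 0.453, 0.610 and 0.470 FPKM in the libraries labelled cKO and 1.14, 0.544 and 1.02 FPKM in those labelled control, and was not tested.

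Of 5 plakins, large proteins that bind filaments, 2 were higher and 1 lower (median -0.36). The 2 higher were the desmosome-associated envelope precursors. Ppl, which encodes periplakin, averaged 193 ± 11.6 and 131 ± 7.25 FPKM in the libraries labelled cKO and control (log2 difference 0.55, limma adjusted p = 0.0142). Evpl, which encodes envoplakin, averaged 132 ± 35.2 and 65.6 ± 13.3 FPKM (0.99, adjusted p = 0.0185). Ppl lost its call without cKO 2 or control 2 (adjusted p up to 0.0537) and Evpl without control 1 or control 3 (adjusted p up to 0.0697). Macf1, a linker of actin and microtubules, was lower at -0.87 (adjusted p = 0.0339) and lost its call with any library left out (adjusted p 0.0506 to 0.0913), under median-of-ratios scaling (adjusted p = 0.0623) and under quantile normalization (adjusted p = 0.0566).

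Adherens junction genes, the other adhesive system between keratinocytes, had no member higher and 1 lower of 11 (median -0.10). Over all genes tested, 5.87% were higher and 13.6% lower. Cdh1, which encodes E-cadherin, averaged 353 ± 27.2 FPKM in the libraries labelled cKO and 377 ± 32.0 FPKM in those labelled control, a log2 difference of -0.093 (95% interval -0.37 to 0.18, limma adjusted p = 0.616) that turned to 0.13 under median-of-ratios scaling. The member called was Ctnna1, which encodes α-catenin, at -0.60 (adjusted p = 0.0127), and without the library labelled cKO 1 it was not called (adjusted p = 0.0510), nor under median-of-ratios scaling (adjusted p = 0.0970). Under scaling by the median of ratios none was lower and 1 was higher. No test compared the desmosome genes with this list.

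Among 11 epidermal keratins, the filaments that desmosomes anchor, 10 were tested, 4 were higher and 3 lower (median 0.34), and these counts held with each library left out. The suprabasal pair Krt1 (3.12, limma adjusted p = 0.00168) and Krt10 (3.47, adjusted p = 0.000794) took 7.97 to 16.2% of all FPKM in the libraries labelled cKO, against 0.885 to 1.28% in those labelled control, with the highest share in cKO 3. Krt6a (-5.96, adjusted p = 0.000676) and Krt6b (-5.22, adjusted p = 1.14e-05), keratins of wounded epidermis and near-identical copies whose reads may be split, were lower. The basal pair did not pass the test. Krt5 was at 0.51 (adjusted p = 0.184), and Krt14 was at -0.076 (adjusted p = 0.853) and at 0.15 under median-of-ratios scaling. Quantile normalization called Krt14 lower (-0.77, adjusted p = 0.0183), and the 4 libraries called Krt5 higher (0.60, adjusted p = 0.00472). With any library left out, Krt5 was not called (adjusted p 0.0505 to 0.429).

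Of 14 transcription factor genes of keratinocytes, 4 were higher and 1 lower (median 0.27). Gata3 (0.79, limma adjusted p = 0.00931), Zfp750 (0.89, adjusted p = 0.00957), Klf5 (0.81, adjusted p = 0.0229) and Cebpa (0.60, adjusted p = 0.0344) were higher, and without control 2 only 2 factors were. Klf5 lost its call without control 2 or control 3 (adjusted p up to 0.0844), and Cebpa without any library labelled cKO, control 1 or control 2 (adjusted p 0.0525 to 0.0973). The 1 lower, Klf4 (-0.65, adjusted p = 0.0378), was named after its values were seen, and no factor was called lower with any library left out or under median-of-ratios scaling, while 3 were on the 4 libraries. Grhl1, a factor known to activate Dsg1 in mice, was at 0.31 (adjusted p = 0.265) and was also named after the fact.

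Proteases and inhibitors that act on desmosomal cadherins had 1 member higher and 4 lower of 11 tested (median -0.28). Spink5, which encodes the kallikrein inhibitor LEKTI, averaged 6.96 ± 1.46 FPKM in the libraries labelled cKO and 31.6 ± 5.67 FPKM in those labelled control (-2.03, limma adjusted p = 0.00156). Klk5, a kallikrein that LEKTI inhibits, averaged 11.4 ± 2.25 and 42.8 ± 7.64 FPKM (-1.82, adjusted p = 0.00169), and Klk6 was lower too (-2.44, adjusted p = 0.00426). Klk6 averaged 0.415 ± 0.335 and 6.97 ± 3.04 FPKM in the same order, and with 0.1 added instead of 1 its difference was -3.98. Klk8 was the member called higher (1.19, adjusted p = 0.00934). Spink5 and Klk5 were thus both lower in the libraries labelled cKO, while Klk7 was not called (-0.019, limma adjusted p = 0.945). Klk7 and the fourth lower gene, Ctsl (-2.33, adjusted p = 0.0182), were named after their values were seen. With any library labelled control left out, 3 members were lower. Of 6 enzymes and adaptors that act on desmosomal proteins, none was higher and 1 was lower, Prkca (-1.08, adjusted p = 0.0302), a kinase known to loosen desmosomal adhesion. Prkca averaged 1.90 ± 0.650 FPKM in the libraries labelled cKO and 5.17 ± 1.62 FPKM in those labelled control (-1.41 with 0.1 added instead of 1). Its call was lost without cKO 1, cKO 3 or any labelled control (adjusted p 0.0547 to 0.0737).

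**Figure D5:**
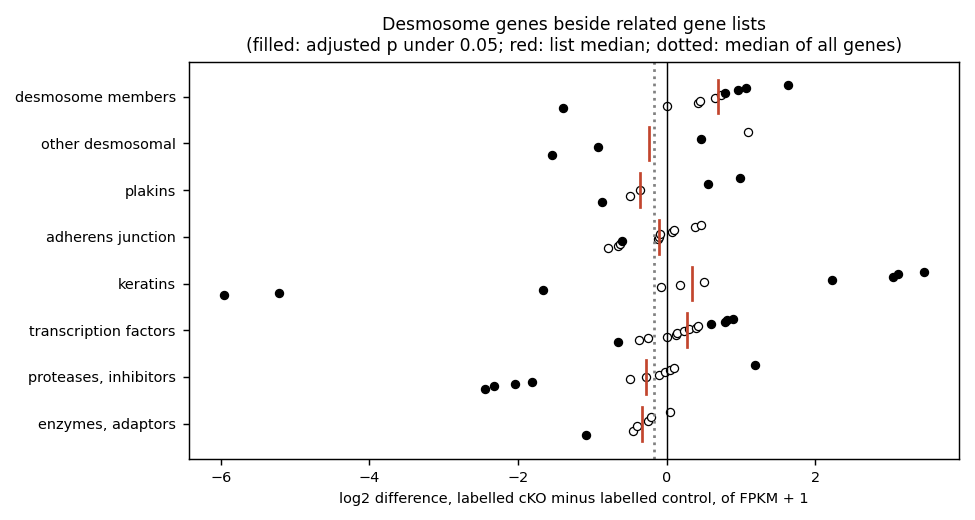
Log2 differences (labelled cKO minus labelled control, FPKM + 1) of the 10 desmosome genes and of the tested genes of 7 related lists, 1 point a gene. Filled points passed an adjusted p of 0.05, red lines are list medians and the dotted line is the median of all genes; the desmosome genes have a median of 0.69, while the keratins spread from -5.96 to 3.47.

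Profiles across the 6 libraries were compared by the root mean square distance between log2(FPKM + 1) values, each centred on its own mean, among 11403 genes. The genes closest to Dsp were Plch2, Zfp672 and Mettl3, at distances of 0.0454, 0.0559 and 0.0606. The closest desmosome gene was Dsc2 at 0.157, which ranked 214, with Pkp3 nearly as close at 0.160 and rank 230. Zfp672 lay below 5 FPKM in every library and Dsc2 at 2.75 to 7.65 FPKM, so their nearness to Dsp also depends on the added 1. Closest to Dsg3 were Rnf213, Tspan8 and Nlrc5, at 0.0893, 0.101 and 0.109. All 3 lay below 5 FPKM in every library, where the added 1 shrinks differences, so their nearness to Dsg3 depends on that pseudocount. Its nearest desmosome gene, Dsc1, ranked 7753 at a distance of 0.803. Dsc1 lay closest to Nabp1, Aacs and Oma1, at 0.0643, 0.0889 and 0.0901, of which Nabp1 and Oma1 were also below 5 FPKM in every library. The desmosome gene nearest to Dsc1 was Dsp, at 0.386 and rank 1277.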

How the data were processed

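The authors deposited 1 table of FPKM values for 17025 genes in 6 libraries, with groups and replicate numbers taken from the labels. According to the submitters' processing notes, fastp, HISAT2 and HTSeq were used with the build GRCm39. Versions, annotation release, gene filter and strand setting are unknown here.

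Whole fragments were recovered from the FPKM of 17024 genes (tolerance 1e-09), and the desmosome genes had 421 to 302767 per library. Tested were the 11603 genes averaging 1 FPKM or more, on the scale log2(FPKM + 1), which understates changes of low genes. The test was limma 3.58.1 (R 4.3.3), comparing the groups with a mean-variance trend, with Benjamini-Hochberg adjustment over all these genes and calls made under 0.05. It was tried on simulated data. Ratios within libraries were compared by exact two-sided permutation. The members and lists were chosen with earlier results of these data known. Named by rule are the members, Ash2l, at most 4 called genes per list (by adjusted p), 8 partner genes and the 3 nearest profiles of Dsp, Dsg3 and Dsc1, without predicted, Rik, pseudogene and haemoglobin genes. Alternatives covered pseudocounts, filters, scalings, variance settings, thresholds, a replicate block, each library left out and 4 libraries (without control 1 and cKO 3), and limma-voom on recovered fragments was added after seeing the data. GRCm38 annotation served for neighbours, shared windows and the promoter. Figures were drawn with matplotlib 3.10.9.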

Additional observations from a re-analysis of the deposited data

How the results depend on the processing

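The count of desmosome genes called higher (4) was 7 under quantile normalization, with array weights and on the 4 libraries, and 8 at a threshold of 0.1. Over all genes, 1029 of 11613, 1423 of 11603, 1172 of 11645 and 975 of 11603 were called higher in the same order. The count of desmosome genes lower stayed at 1 in all alternatives, beside 506 to 2831 of all genes. With each library left out, 4 desmosome genes were higher and 1 was lower, beside 393 to 713 and 710 to 1453 of all genes. All genes called (2257) became 4254 with array weights, 3572 on the 4 libraries, 771 at a threshold of 0.01 and 1103 to 2166 with a library left out. The replicate numbers did not pair the libraries (correlations of same-numbered deviations -0.307, 0.0798 and -0.261). The replicate block gave 1325 calls (432 higher and 893 lower), with 4 desmosome genes higher and 1 lower. On the 4 libraries, the log2 difference of the desmoglein 1 to desmoglein 3 ratio was 2.49, of Pkp1 to Pkp3 0.48 and of Dsp to Krt14 0.070. Signs turned for Dsc1 with array weights (-0.16), without cKO 3 (-0.35), control 2 (-0.096) or control 3 (-0.14; range with 1 library left out -0.35 to 0.27) and on the 4 libraries (-0.087). They turned for Cdh1 under the median of ratios (0.13, and 0.11 with limma-voom), array weights (0.0092) and the 4 libraries (0.038), for Krt5 under quantiles (-0.89), and for Krt14 under the median of ratios (0.15, and 0.13 with limma-voom), array weights (0.21), without cKO 3 (0.060) or control 1 (0.16; range with 1 library left out -0.29 to 0.16) and on the 4 libraries (0.30). These causes were not tested. A filter at 5 FPKM left Dsc2 untested, and likewise Cdsn, Klk6 and Prkca. Dsc2 had the fewest fragments of the desmosome genes, 761 to 1286 in the libraries labelled cKO, against 421 to 499 in those labelled control, and the effect of depth on its call was not tested.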

Other observations

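The authors' own annotation column assigns the term desmosome to 24 genes, of which 9 belong to the 10 genes described, Perp being the exception. This set was looked at after the other results were seen. Of the 8 annotated genes that no list above holds, all were tested, 1 was higher and 1 was lower in the libraries labelled cKO. Pof1b, an actin-binding protein of epithelial junctions, measured 58.3, 64.2 and 88.4 FPKM in the libraries labelled cKO, against 45.7, 44.8 and 43.0 FPKM in those labelled control, and the groups did not overlap (log2 difference 0.63, SE 0.17, limma adjusted p = 0.0389). Kazn, which encodes kazrin, a partner of periplakin, measured 4.72, 4.81 and 3.96 FPKM in the libraries labelled cKO, against 6.92, 8.52 and 7.85 FPKM in those labelled control (-0.67, SE 0.18, limma adjusted p = 0.0373). Whether the call of Pof1b or of Kazn holds with a library left out was not examined. Klhl24, which encodes an adaptor for keratin turnover, was at 16.2, 15.1 and 5.01 FPKM in the libraries labelled cKO and 19.7, 18.1 and 19.5 FPKM in those labelled control, and did not pass the test (-0.76, SE 0.38, limma adjusted p = 0.192), with cKO 3 standing far below the other libraries.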
